A study of Bos taurus with 28 samples.

Results

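ABHD6, OSBPL3 and GDPD2 are 3 genes of lipid signalling and lipid transport that were measured in the anterior pituitary gland of heifer calves. They are the rows of the gene expression table whose Ensembl identifiers the study's list of diet-responsive genes pairs with these symbols, that is, ENSBTAG00000016615 for ABHD6, ENSBTAG00000019342 for OSBPL3 and ENSBTAG00000012863 for GDPD2, 3 of the 27607 genes listed. The study chose that list by the difference between the diets in these same calves, so the members were selected on the measured fold change and its p-value, and the diet difference of the 3 genes is given as a description. The calls that a fit over all genes makes for them are reported as well, but are no independent test of that difference. Holstein-Friesian X Angus heifers received a high (HI, n = 13) or a moderate (MOD, n = 15) plane of nutrition. HI calves had 1.5 kg of milk replacer (10 litres) a day with unrestricted concentrates, then unrestricted concentrates with hay, whereas MOD calves had 4 litres a day, made from 0.5 kg of the replacer, with 1 kg of concentrates, and later the same amount of concentrates with hay. The calf phase lasted 8 weeks and the post-weaning phase 11 weeks, and every calf was sampled at 21 weeks of age. Each library came from the pituitary of 1 animal.

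Cells signal with lipids as well as with proteins. Monoacylglycerols such as 2-arachidonoylglycerol, an endocannabinoid, activate cannabinoid receptors and are removed by hydrolases, and ABHD6 is a membrane-bound hydrolase of this kind. OSBPL3, also called ORP3, belongs to the oxysterol binding protein family, whose members bind sterols and phosphoinositides and move lipids between membranes where organelles touch. GDPD2, also called GDE3, is a membrane glycerophosphodiester phosphodiesterase, an enzyme that cleaves the headgroups of deacylated phospholipids such as glycerophosphoinositol. The pituitary contains hormone-secreting cells whose activity is set by hypothalamic factors, among them dopamine on prolactin cells and GnRH on gonadotropin cells.

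Expression is given as CPM, reads per 1000000 on library sizes that the authors adjusted by the TMM method. The libraries held 12669266 to 18217216 reads on genes, so that 1 read stood for 0.0482 to 0.0830 CPM. The libraries resembled others of the same diet with a median Pearson r between 0.951 and 0.980 over expressed genes, and HI calf 2535 (0.952) and MOD calf 2551 (0.951) stood lowest. Defining genes of the hormone cells were measured in all calves, and PRL, DRD2, CSHL1, GHRHR and FSHB summed to between 135696 and 378906 CPM in an HI calf and to between 170477 and 421414 CPM in a MOD calf. No gene of this list was at 0 in any calf.

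ABHD6, the monoacylglycerol hydrolase, was the only member of the 3 with the lower level in HI calves. It ran from 15.2 CPM through a median of 24.4 to 37.6 CPM in the HI calves. In the MOD calves it ran from 18.5 CPM through a median of 31.0 to 102 CPM. The diets overlapped over most of their range, and the MOD calves had a long upper tail made by 3 calves at 59.0, 84.3 and 102 CPM. The other 12 MOD calves were at 38.5 CPM or below, a level close to the highest HI calf, and had a mean of 28.6 ± 6.30 CPM (SD, n = 12). Over all calves the HI mean was 24.8 ± 6.52 CPM (SD, n = 13), the MOD mean was 39.3 ± 24.2 CPM (SD, n = 15), and the log2 fold change of HI relative to MOD was -0.51 (standard error 0.20). It was -0.40 without MOD calf 3622, the highest.

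OSBPL3, the lipid exchange protein, was higher in HI calves. The HI calves ran from 8.95 CPM through a median of 11.2 to 22.1 CPM. The MOD calves ran from 5.57 CPM through a median of 7.84 to 12.1 CPM. All 13 HI calves were above the MOD median, 5 were above every MOD calf, and 12 of the 15 MOD calves were below every HI calf. The means were 12.7 ± 3.63 CPM (SD, n = 13) and 8.01 ± 1.92 CPM (SD, n = 15), and the log2 fold change was 0.63 (standard error 0.12). The highest HI calf, 3620, was at 1.98 times the HI median, and without it the log2 fold change was 0.56.

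GDPD2, the glycerophosphodiesterase, had the largest ratio between the diets and the fewest reads. The HI calves ran from 1.16 CPM through a median of 2.98 to 5.39 CPM. The MOD calves ran from 0.254 CPM through a median of 1.26 to 2.04 CPM. The HI calves fell into a set of 7 between 2.98 and 5.39 CPM, above every MOD calf, and a set of 6 between 1.16 and 1.87 CPM, inside the range of the MOD calves. The means were 3.02 ± 1.60 CPM (SD, n = 13) and 1.18 ± 0.574 CPM (SD, n = 15), a ratio of means of 2.55. On log2(CPM + 0.5), a scale that understates the change of a gene as low as this, the log2 fold change was 1.01 (standard error 0.22). It was 1.27 with 0.1 added in place of 0.5 and 0.61 with 2 added, and 1.35 with the quasi-likelihood F-test of edgeR on the reads, so that its size rested on how low values were treated.

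**Figure D1:**
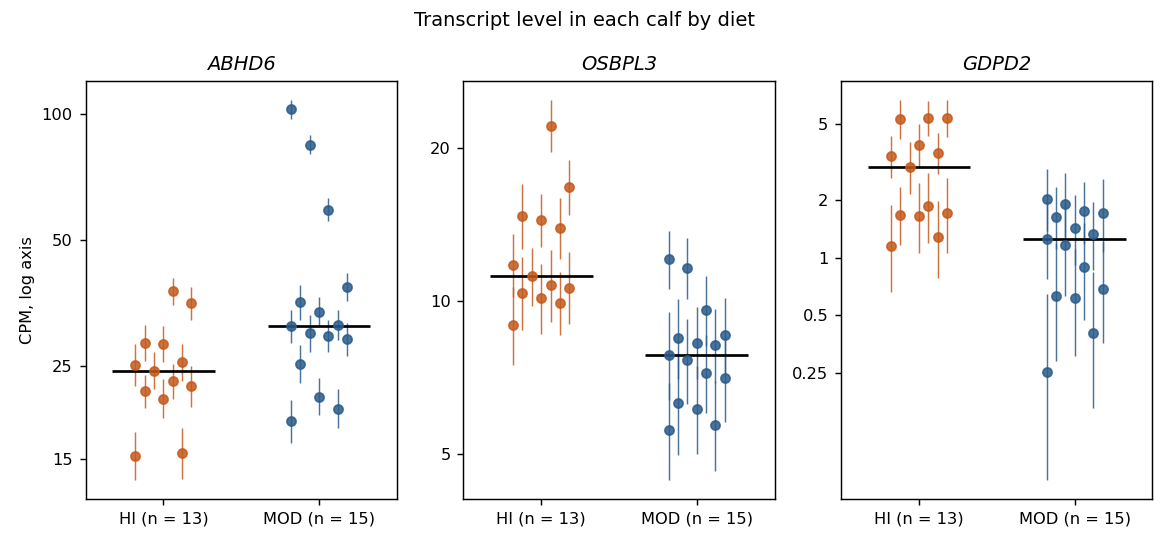
CPM (log axis) of ABHD6, OSBPL3 and GDPD2 in each of the 13 HI and 15 MOD calves. Each point is a calf with the exact Poisson 95% interval of its reads, and black lines are medians. The 3 MOD calves at the top of the ABHD6 panel lie at 59.0, 84.3 and 102 CPM, and 7 HI calves lie above all MOD calves for GDPD2.

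Expression was compared over the whole table with limma, on log2(CPM + 0.5), and a call required both a fold change above 1.5 and a p-value below 0.05 after Benjamini-Hochberg adjustment. OSBPL3 and GDPD2 met this rule and ABHD6 did not, that is, 2 of the 3 members, beside 0.837% of the 14939 genes tested. The genes were put on the study's list for this same contrast, so nothing is read from that count, nor from how often the calls recur below, which the same choice bears on. None of the 3 separated the diets without overlap, beside 0.0134% of the genes tested. Counting HI and MOD calves pair by pair, the HI calf had the lower ABHD6 in 145 of 195 pairs, the higher OSBPL3 in 179 and the higher GDPD2 in 166. With each calf left out in turn, GDPD2 was called in 28 of 28 fits, OSBPL3 in 27 (not without HI calf 3620) and ABHD6 in 0. OSBPL3 was also not called with a pseudocount of 2 (log2 fold change 0.55), and ABHD6 was not called by edgeR, DESeq2 or limma-voom either. The paper reports ABHD6 as lower in HI calves, with edgeR at the same thresholds, so that call was not reached again here. The exact test of edgeR gave a log2 fold change of -0.66. The paper gives equal groups and the labels do not, and the reason for the differing call was not tested.

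The depth behind these values differed. ABHD6 rested on 199 to 1463 reads in a calf and OSBPL3 on 76 to 284 reads. GDPD2 rested on 4 to 88 reads, and its lowest value, MOD calf 1690 at 0.254 CPM, had an exact Poisson 95% interval from 0.0691 to 0.650 CPM, which covers counting error only. The coefficient of variation between calves was 26.3% in HI and 61.8% in MOD for ABHD6, against 5.13% and 4.04% that counting alone gives. For OSBPL3 it was 28.5% and 24.0% against 7.23% and 8.84%. For GDPD2 it was 53.0% and 48.5% against 14.6% and 23.2%. The values come from separate animals, so a spread above that of counting is given by the design, and counting error was larger relative to the spread for GDPD2 than for ABHD6 or OSBPL3 in each diet.

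Whether the spread between calves itself differed by diet was tested on deviations from each diet's median. For ABHD6 this is not independent of the difference in level, since the 3 highest MOD calves bear on both. On log2(CPM + 0.5) the SD of ABHD6 was 0.37 in HI and 0.70 in MOD, and 97.5% of the genes tested had a smaller SD than ABHD6 in MOD, against 78.5% in HI. For GDPD2 this share was 97.0% in HI and 93.8% in MOD, and for OSBPL3 it was 75.2% and 70.6%. The mean absolute deviation of ABHD6 from the diet's median was 0.27 in HI and 0.47 in MOD. The difference, -0.20, did not pass the test (2-sided permutation p = 0.227, adjusted p = 0.401 over the 3 genes). It was -0.11 without MOD calf 3622 and -0.13 without MOD calf 911. For OSBPL3 the deviations were 0.27 and 0.24 (permutation p = 0.744, adjusted p = 0.744). For GDPD2 they were 0.58 and 0.44 (permutation p = 0.267, adjusted p = 0.401). The GDPD2 difference was 0.14, and its size rested on how low values were treated. It was 0.06 with a pseudocount of 0.1 (adjusted permutation p = 0.782) and 0.17 with a pseudocount of 2 (adjusted permutation p = 0.0563).

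The 3 genes were then compared with each other across calves of the same diet. In HI calves ABHD6 was high where OSBPL3 was low, with Pearson r = -0.73 (permutation p = 0.00425, adjusted p = 0.153) and Spearman rho = -0.66 (permutation p = 0.0172, adjusted p = 0.578; n = 13), which did not pass after adjustment over the 36 relations examined. The relation rested on the 2 HI calves farthest from the ABHD6 median, since r was -0.39 when they were left out (permutation p = 0.231). The HI calves lowest in ABHD6, 2120 at 15.2 CPM and 3620 at 15.5 CPM, were the highest in OSBPL3, at 16.75 and 22.1 CPM. No such relation was seen in the 15 MOD calves, with r = 0.03 (permutation p = 0.908, adjusted p = 0.939) and rho = 0.06 (permutation p = 0.832, adjusted p = 0.981). The difference of the correlations between the diets was tested by permuting the diets over centred values, and it missed the threshold once adjusted over 3 pairs (Fisher z difference -0.97, permutation p = 0.0188, adjusted p = 0.0563). The values were not scaled to a common SD, which for ABHD6 was 0.37 in HI and 0.70 in MOD calves. The permutation takes calves as exchangeable between the diets, so its p-value is approximate.

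**Figure D2:**
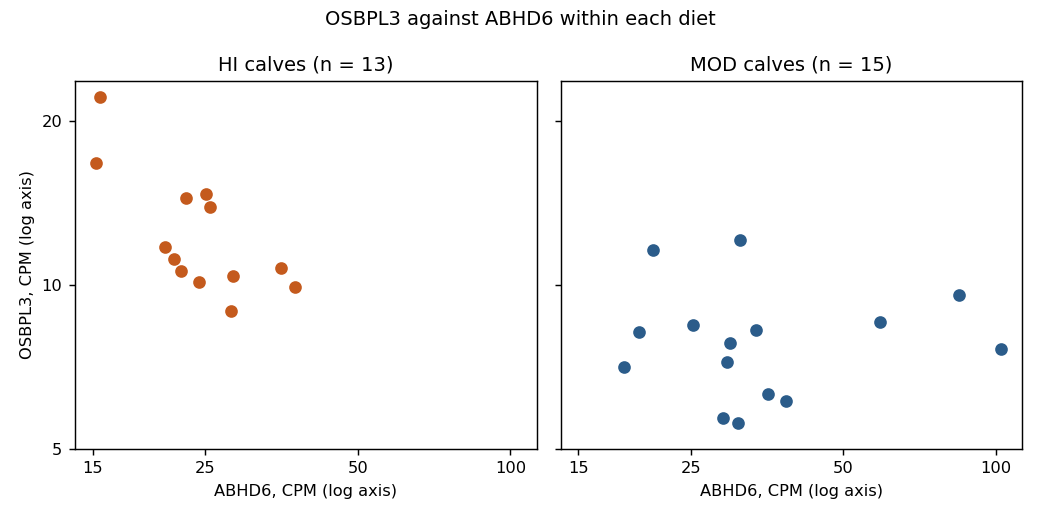
OSBPL3 against ABHD6, both as CPM on log axes, with a point for each of 13 HI calves (left) and 15 MOD calves (right). The 2 HI calves at 15.2 and 15.5 CPM of ABHD6 carry the 2 highest OSBPL3 values, and no slope is seen in MOD calves (r = 0.03).

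No relation of GDPD2 with either other member was detected at this number of calves. Its Pearson r with ABHD6 was -0.30 in HI (permutation p = 0.319, adjusted p = 0.804) and -0.25 in MOD calves (permutation p = 0.374, adjusted p = 0.804), with rho of -0.41 and -0.16 (permutation p = 0.164 and 0.565, adjusted p = 0.843 and 0.928). With OSBPL3 r was 0.14 in HI (permutation p = 0.657, adjusted p = 0.888) and -0.18 in MOD calves (permutation p = 0.514, adjusted p = 0.804), with rho of 0.32 and -0.33 (permutation p = 0.289 and 0.225, adjusted p = 0.908 for both). Without the 2 calves farthest from the median of the first gene, r lay at -0.31 and -0.23 for ABHD6 with GDPD2 and at 0.21 and -0.17 for OSBPL3 with GDPD2.

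Pituitary tissue holds several cell types, and in bulk tissue fewer cells of a type and less RNA per cell cannot be told apart. The 10 markers named here stand on the study's list, chosen for a difference between these diets in these calves, so their counts are read beside the 0.837% of all genes called and are not independent evidence. Of the 5 hormone cell markers 4 were called, PRL and DRD2 of prolactin cells higher and CSHL1 and FSHB lower in HI calves. GHRHR, which marks the growth hormone cells, had a log2 fold change of -0.57 with all 13 HI calves below the MOD median, and missed the call on its size alone (limma adjusted p = 0.00815). Of 5 markers of other cell types (ACTA2, LMOD1, CX3CR1, CD79B and OMG) 2 were called, OMG higher and CD79B lower in HI calves. These 5 summed to between 61.0 and 138 CPM in an HI calf and to between 64.4 and 176 CPM in a MOD calf, and none was at 0 in any calf. The sum joins genes of opposite sign, since the smooth muscle genes ACTA2 and LMOD1 had log2 fold changes of -0.69 and -0.51 and the microglia and macrophage receptor CX3CR1 one of 0.63, sizes like those of ABHD6 and OSBPL3, although none of these 3 markers was called. Within a diet, each member was set against PRL, CSHL1, FSHB, the early response gene EGR1 and the reads per library. Of these 30 relations 0 had an adjusted p-value below 0.05 by permutation and 0 had an unadjusted p-value below 0.05 with all calves, with r between -0.43 (OSBPL3 with FSHB in HI) and 0.46 (OSBPL3 with PRL in HI). Without the 2 calves farthest from the member's median, 2 of the 30 had an unadjusted permutation p-value below 0.05. These were ABHD6 with FSHB in MOD, which went from r = 0.03 to -0.57 (permutation p = 0.0431), and OSBPL3 with EGR1 in HI calves, which went from -0.40 to -0.60 (permutation p = 0.0488). The part of the cell type markers in the diet differences was otherwise not tested.

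The genes that varied most like each member were ranked by Pearson r over the 28 calves after each diet was centred on its mean. Only the 159 genes to which the study's list of diet-responsive genes gives a symbol could be named, so each order below is one within that list. Over all genes tested, genes without a symbol here reached r = 0.78 for ABHD6, 0.81 for OSBPL3 and 0.68 for GDPD2, and as low as -0.68, -0.74 and -0.59. These coefficients describe the 28 libraries and carry no test. For ABHD6 the first 5 of the list were ARRDC2 (r = 0.74), an arrestin domain protein, CDC42EP4 (0.74), an effector of the GTPase CDC42, PDK4 (0.72), the kinase that shuts down pyruvate dehydrogenase when fat replaces glucose as fuel, the carboxylesterase CES4A (0.66) and the cAMP-responsive transcription factor CREM (0.64). Of the 14938 other genes tested, 4 had a higher r than ARRDC2 and 32 a higher r than CREM. The likeness came mainly from MOD calves, where r was 0.81 for ARRDC2, 0.86 for CDC42EP4, 0.82 for PDK4, 0.70 for CES4A and 0.78 for CREM, against 0.38, 0.30, 0.19, 0.51 and -0.10 in HI.

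The MOD calves 3622 and 911, at the top for ABHD6, carried much of it. PDK4 was at 268 CPM in calf 3622 and 252 CPM in calf 911, the 2 highest MOD values, beside a MOD median of 83.3 CPM and an HI range from 32.7 to 89.4 CPM. ARRDC2 was at 37.1 and 25.7 CPM in the same calves, beside a MOD median of 7.18 CPM, whereas calf 1690, which followed them for ABHD6, was at 7.17 CPM, near that median. CDC42EP4 was at 85.3 and 86.4 CPM in calves 3622 and 911, beside a MOD median of 38.0 CPM. CDC42EP4 was also called lower in HI calves (log2 fold change -0.62), and the other 4 genes were not called. Without these 2 calves r was 0.35 for ARRDC2, 0.54 for CDC42EP4, 0.48 for PDK4, 0.52 for CES4A and 0.34 for CREM.

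At the other end of the named genes was the orphan receptor gene GPR139 (r = -0.49), although 114 of all genes tested had a lower r with ABHD6. It was listed at 0 in calf 3622, at 0.239 CPM in calf 911 and at 0.317 CPM in calf 1690, the 3 lowest MOD values. In MOD calves r was -0.90 and in HI calves 0.27, and the value over all calves without 3622 and 911 was -0.18. ISLR2 (r = -0.42), a neuronal membrane protein, and JUNB (-0.39), an early response transcription factor, came next among the named genes (267 and 413 of all genes were lower), with r of -0.63 and -0.49 in MOD against 0.41 and -0.01 in HI calves. Without calves 3622 and 911 their r over all calves was -0.37 and -0.22. These differences between diets were not tested.

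**Figure D3:**
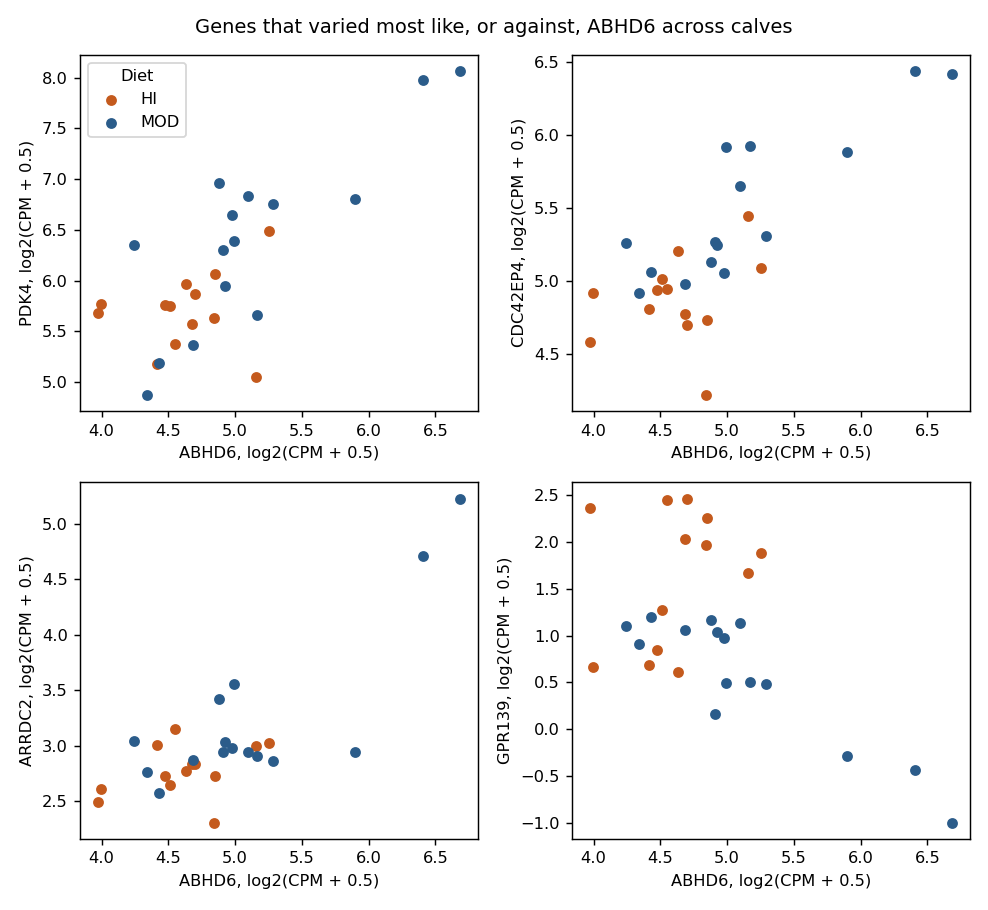
PDK4, CDC42EP4, ARRDC2 and GPR139 against ABHD6 in 28 calves, all as log2(CPM + 0.5), coloured by diet. The MOD calves 3622 and 911 lie at the far right of each panel, high for PDK4 (268 and 252 CPM), CDC42EP4 and ARRDC2 and low for GPR139.

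For OSBPL3 the first named gene was CHL1. CHL1, a neural cell adhesion molecule, followed it with r = 0.79 over all calves, 0.75 in HI and 0.84 in MOD, and r stayed at 0.78 when HI calf 3620 and MOD calf 991, those farthest from the centre, were left out. CHL1 lay between 92.2 and 381 CPM in HI calves and between 45.3 and 206 CPM in MOD calves, and calf 3620 was the highest HI calf for both genes. MOD calf 1057 was the highest MOD calf for CHL1, and also for ETV1 (103 CPM) and GREB1L (41.4 CPM), named below. It was next to the highest MOD calf for OSBPL3 (11.6 CPM) but below the MOD median for GDPD2 (0.619 against 1.26 CPM). A higher r than that of CHL1 was found for 2 of the 14938 other genes. ETV1 (r = 0.67), an ETS transcription factor, the kinase CAMK1D (0.64), GREB1L (0.59) and FRMPD4 (0.49), a synaptic scaffold protein, came next in the list, with 419 of all genes above FRMPD4. For CHL1, ETV1, CAMK1D and GREB1L r was between 0.56 and 0.84 in each diet, and for FRMPD4 it was 0.58 in HI and 0.40 in MOD calves. Without calves 3620 and 991, r was 0.68 for ETV1, 0.55 for CAMK1D, 0.52 for GREB1L and 0.36 for FRMPD4. The lowest of the named genes were the transcription factor MSC (-0.55), ISLR2 (-0.49) and CD79B (-0.49), a B cell receptor component that lay between 0.429 and 3.65 CPM over the 28 calves. Of all genes tested, 109 had a lower r than MSC, 286 than ISLR2 and 293 than CD79B. Without calves 3620 and 991, r was -0.53 for MSC, -0.40 for ISLR2 and -0.51 for CD79B. Within each diet CD79B was highest in the library that stood apart, HI calf 2535 (2.22 CPM) or MOD calf 2551 (3.65 CPM). Without these 2 libraries r was -0.51 for MSC, -0.48 for ISLR2 and -0.40 for CD79B.

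For GDPD2 the first 5 of the list were C1orf87 (r = 0.57), ADAMTSL3 (0.57), an extracellular matrix protein, COL27A1 (0.54), a fibrillar collagen, the small GTPase DIRAS2 (0.50) and KLHL1 (0.50), a neuronal actin-binding protein. Of all genes tested, 6 had a higher r than C1orf87 and 41 than KLHL1. The calves farthest from the centre for GDPD2 were HI calf 2570 and MOD calf 1690. Without them r was 0.46 for C1orf87, 0.54 for ADAMTSL3, 0.45 for COL27A1, 0.40 for DIRAS2 and 0.41 for KLHL1. The 7 HI calves that exceeded all MOD calves in GDPD2 were also the 7 highest HI calves for COL27A1, at 53.2 to 103 CPM, beside 35.9 to 47.6 CPM in the other 6 and 16.0 to 46.8 CPM in MOD calves. That was so for 17 of the 14938 other genes tested. For KLHL1 and C1orf87, 6 of the 7 were among the highest 7, and for ADAMTSL3 and DIRAS2, 5 of the 7 were. In HI calves r was 0.64 for C1orf87, 0.59 for ADAMTSL3, 0.72 for COL27A1, 0.56 for DIRAS2 and 0.80 for KLHL1, against 0.50, 0.55, 0.32, 0.43 and 0.14 in MOD calves, and these differences were not tested. PCP4, a calmodulin regulator, was called higher in HI calves like GDPD2 (log2 fold change 0.88), yet within diets it ran against it (r = -0.40, and -0.27 without the 2 calves farthest from the centre), as did ANGPTL2 (-0.38, and -0.29 without those calves) and LMOD1 (-0.40, and -0.42 without them), a smooth muscle actin nucleator. The libraries that stood apart, HI calf 2535 and MOD calf 2551, had the highest ANGPTL2 of their diets at 32.5 and 23.4 CPM, and for PCP4 calf 2551 was the highest MOD calf at 11.4 CPM and calf 2535 was next to the highest HI calf at 26.8 CPM. Without these 2 libraries r was -0.38 for PCP4, -0.43 for ANGPTL2 and -0.44 for LMOD1. Of all genes tested, 187 had a lower r than PCP4, 241 than ANGPTL2 and 176 than LMOD1.

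**Figure D4:**
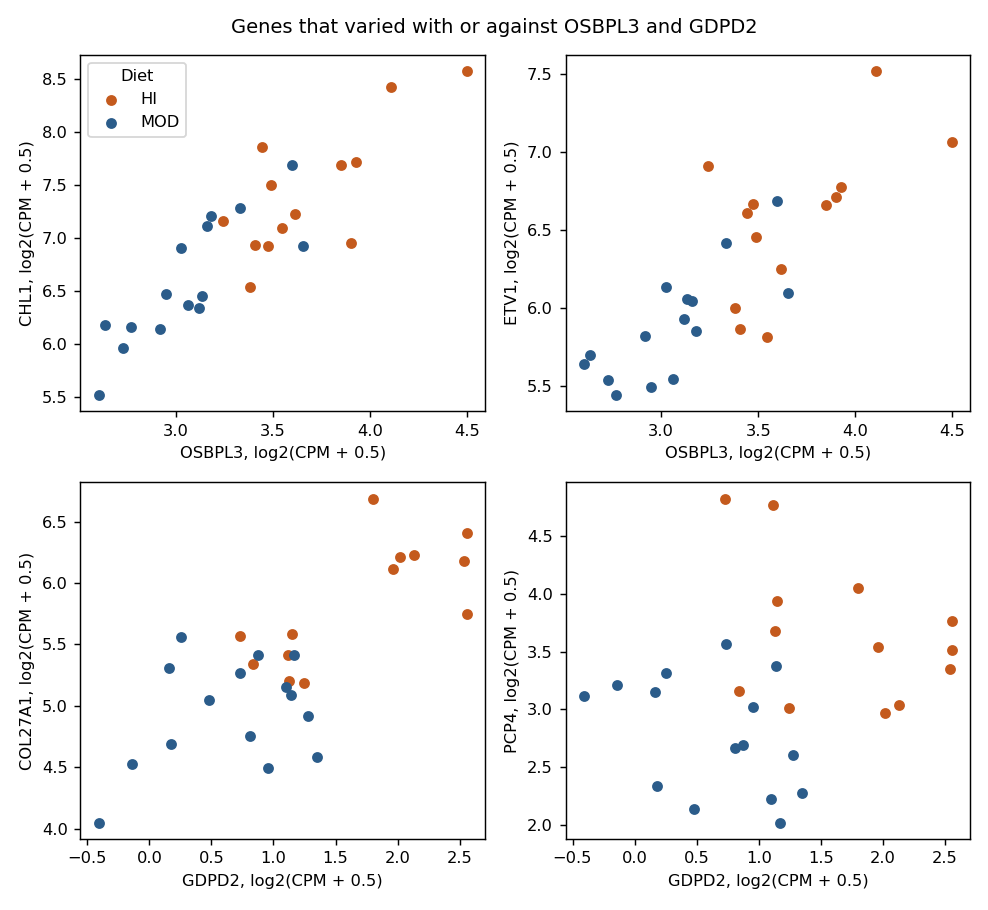
CHL1 and ETV1 against OSBPL3 (top) and COL27A1 and PCP4 against GDPD2 (bottom) in 28 calves, as log2(CPM + 0.5), coloured by diet. CHL1 rises with OSBPL3 in both diets (r of 0.75 in HI and 0.84 in MOD), and the 7 HI calves highest in GDPD2 are also the 7 highest HI calves for COL27A1.

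The study's list holds 8 other genes whose names give a lipid substrate, enzyme or carrier, and all 8 were tested. The rule called 3 of them, all lower in HI calves, beside 0.428% of all genes tested that were called lower. As the study picked these genes for their difference in the same calves, the count is not independent evidence of a direction. ALOX12, an arachidonate lipoxygenase, averaged 1.51 ± 0.938 CPM in HI calves (SD, n = 13) against 3.93 ± 2.05 CPM in MOD calves (SD, n = 15), which is -1.13 on the log2 scale (standard error 0.24). ABCA10, a transporter of the lipid-moving ABCA family, was at -0.92 (standard error 0.23), with 2.14 ± 0.756 CPM in HI and 4.96 ± 3.61 CPM in MOD calves. LPL, the lipase that frees fatty acids from circulating triglyceride, was at -0.64 (standard error 0.15), with 2.54 ± 0.596 CPM in HI and 4.44 ± 1.88 CPM in MOD calves. LPL was not called without MOD calf 2532 (-0.57), where 3 of the 8 genes were called, nor with a pseudocount of 2, where 2 were. The count lay higher on the reads, with 6 of the 8 called by the quasi-likelihood F-test and all 8 by the exact test of edgeR and by DESeq2, of which 4 were higher and 4 lower in HI calves. The share called over all genes was also higher with these tests, at 1.16% for the quasi-likelihood F-test, 1.42% for the exact test and 1.41% for DESeq2, and it was 0.462% with a pseudocount of 2.

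The 5 lipid genes that were not called had values in both directions. CES4A was at 1.22 ± 0.872 CPM in HI and 3.18 ± 2.40 CPM in MOD calves (log2 fold change -0.93, standard error 0.29). CPT1B, which loads long-chain fatty acids for entry into mitochondria, was at 40.2 ± 7.89 CPM in HI and 26.7 ± 5.05 CPM in MOD calves. Its difference, 0.58 on the log2 scale (standard error 0.10), was just under the size required, and it was called in 12 of the 28 fits with a calf left out. All 13 HI calves were above the MOD median for CPT1B, and 9 were above every MOD calf. SEC14L5, of the SEC14 lipid binding family, was at 0.55, PLPPR1, a phospholipid phosphatase related protein, at 0.51 and PLCH2, a phospholipase C, at 0.86, with standard errors of 0.15, 0.18 and 0.34. The median log2 fold change of the 8 was -0.07, beside -0.01 over all genes tested.

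For the endocannabinoid synapse the study lists 7 genes, ABHD6 among them, and again chose them on these calves. With limma 3 were called, CACNA1I (log2 fold change 0.95, standard error 0.19), a T-type calcium channel, and GNA15 (0.63, standard error 0.14), a Gq family subunit, higher and GRIA3 (-0.79, standard error 0.18), an AMPA receptor subunit, lower in HI calves. CACNA1E (0.63), a calcium channel, PLCH2 (0.86), ABHD6 (-0.51) and RIMS1 (-0.57), a presynaptic scaffold, were not called. The share of genes called was 0.408% higher and 0.428% lower over the whole table, and the median log2 fold change of the 7 genes was 0.63. GNA15 was not called without HI calf 2528 (0.56) nor with a pseudocount of 2, and 2 of the 7 genes were called in each of these fits. On the reads, 4 of the 7 were called by quasi-likelihood (1.16% of all genes) and 5 by limma-voom (1.01% of all genes). The exact test (1.42% of all genes) and DESeq2 (1.41%) each called 6, all but ABHD6.

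**Figure D5:**
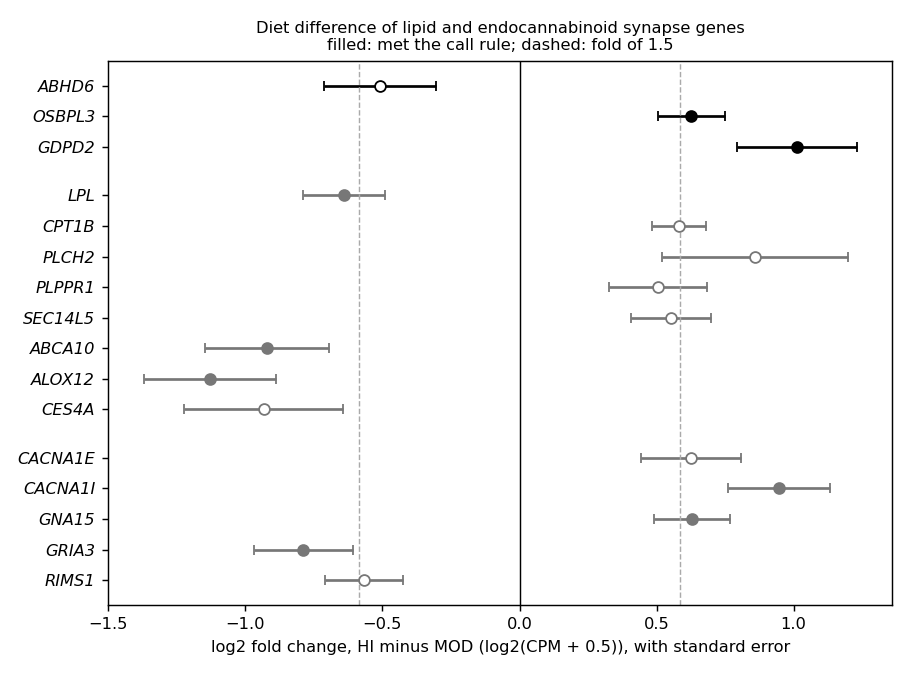
Log2 fold change of HI relative to MOD (log2(CPM + 0.5), bars are limma standard errors) for ABHD6, OSBPL3 and GDPD2 (black), 8 other lipid genes and the other endocannabinoid synapse genes (grey). Filled points met the call rule (OSBPL3, GDPD2, LPL, ABCA10, ALOX12, CACNA1I, GNA15 and GRIA3), and dashed lines mark a fold change of 1.5.

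Each of the 3 symbols had 1 entry, protein coding, in the cattle RefSeq gene table of assembly ARS-UCD2.0, which is not the build the authors aligned to, so no coordinates are given. In that table the GDPD2 gene lies inside a long non-coding RNA model, LOC101904691. The libraries were stranded, but the strand setting used in counting is not given in the sources used here, so reads of GDPD2 and of such an overlapping transcript may not be separable. ABHD6 and OSBPL3 each span 1 small nuclear RNA model only.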

How the data were processed

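The 28 libraries are RNA-seq of anterior pituitary tissue, 1 per heifer. Their diet (13 HI, 15 MOD) and calf number were taken from the labels, where the paper gives equal groups. Which calf this difference rests on is not given, and whether a label is in error was not tested. Per the labels, the authors used FastQC 0.11.8, cutadapt 2.6, STAR 2.6.1, R 3.4 and edgeR 3.5 with build ARS-UCD1.2. The authors deposited a scaled signal in place of raw counts, CPM on TMM-adjusted library sizes. Each was a whole multiple of 1 read (100% of positive values within 0.01 reads), so reads were recovered. The chi-square per gene between 2 calves was 12.2 or more, so no 2 libraries were alike within sampling noise.

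Low genes were left out by filterByExpr (edgeR 4.0.16, 14939 of 27607 kept). The diets were compared on log2(CPM + 0.5) by limma 3.58.1 (R 4.3.3), trended and robust, MOD as reference and no covariate. In simulated reads for these 14939 genes, limma recovered 183 of 200 genes changed 2-fold (91.5%) and called 4 unchanged genes. Alternatives used edgeR, DESeq2 1.42.0 and limma-voom on the reads, other size factors, pseudocounts of 0.1 and 2, filters and each calf left out. Correlations and spreads were tested by 2-sided permutation (100000 resamples). P-values were adjusted by Benjamini-Hochberg.

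The members and lists were chosen with earlier results of these data known. Symbols came from the paper's gene list (159 of 195 identifiers). The genes named are the members, the listed lipid, endocannabinoid synapse and marker genes, EGR1, and for each member the 5 genes most like it and the 3 least. The labels give no sequencing batch and not the block of a calf. No sequence is printed for the 3 genes. The study's fold changes and FDR values were not used.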

Additional observations from a re-analysis of the deposited data

How the results depend on the processing

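The log2 fold changes of the 3 genes kept their direction under all alternatives run. With each calf left out in turn they ran from -0.57 to -0.40 for ABHD6, from 0.56 to 0.67 for OSBPL3 and from 0.94 to 1.09 for GDPD2, and with other scalings, pseudocounts and tests from -0.66 to -0.49, from 0.55 to 0.67 and from 0.61 to 1.36. OSBPL3 was not called with a pseudocount of 2. Over all genes 125 were called, 69 with a pseudocount of 2, 212 with the exact test of edgeR, 211 with DESeq2 and from 100 (without HI calf 2120) to 170 (without HI calf 553) with each calf left out. Of the 8 other lipid genes 3 were called, 2 with a pseudocount of 2, 6 with the quasi-likelihood F-test, 8 with the exact test, 8 with DESeq2 and from 3 to 5 with a calf left out. Of the 7 endocannabinoid synapse genes 3 were called, 2 with a pseudocount of 2, 6 with the exact test, 6 with DESeq2, 5 with limma-voom and from 2 to 5 with a calf left out. The cause of these changes was not tested.

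With each calf left out, the difference in spread (HI minus MOD, log2) ran from -0.24 to -0.11 (without MOD calf 3622) for ABHD6. It ran from -0.0275 (without HI calf 3620) to 0.0551 for OSBPL3 and from 0.10 to 0.20 for GDPD2. The smallest adjusted permutation p-value of these fits was 0.27. In the other settings the GDPD2 difference ran from 0.06 (pseudocount 0.1) to 0.17 (pseudocount 2). Its adjusted permutation p-value was 0.0563 with a pseudocount of 2. The correlation of ABHD6 with OSBPL3 ran from -0.76 to -0.62 in HI and from -0.11 to 0.19 in MOD calves, that of ABHD6 with GDPD2 from -0.47 to -0.12 and from -0.34 to -0.10, and that of OSBPL3 with GDPD2 from -0.0038 to 0.39 and from -0.40 to -0.07. None of the 36 relations passed in any of these fits. The difference between the diets in the correlation of ABHD6 with OSBPL3 ran from -1.13 to -0.76 (Fisher z), and its adjusted permutation p-value, 0.0563, ran from 0.0107 (without MOD calf 1057) to 0.176 (without HI calf 3620) and was below 0.05 in 9 of 28 fits. These p-values are approximate, as the values were centred and not scaled. Leaving out HI calf 2535 and MOD calf 2551 together, an alternative chosen after seeing the data, changed no call on these relations and spreads, and no sign among the correlations with the genes named as most or least like the members. No paired analysis was possible because the labels give each calf its own number, shared by no calf of the other diet. Depth limited GDPD2 most, with 4 reads in 1 calf.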
